A study of Mus musculus with 14 samples.

Results

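miR-21 is a microRNA (miRNA), a short RNA that guides Argonaute proteins to messenger RNAs and lowers their output. It was followed here through its 2 mature arms, 5p and 3p, along the mouse epididymis. The members were found by their names, not by a measured value, as the 2 arms listed among 900 mature miRNA names in a table for whole tissue (miR-21a-5p and miR-21a-3p) and the 2 arms listed among 677 names in a table for isolated epithelial cells (miR-21-5p and miR-21-3p). Small RNA was sequenced from the caput, corpus and cauda, the successive regions that spermatozoa pass through as they mature and are stored. Whole tissue gave 3 caput, 2 corpus and 3 cauda libraries and epithelial cells gave 2 libraries per region, 14 libraries in all.

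All libraries came from untreated adult male Swiss mice, 8 weeks old, whose vessels were perfused with buffered saline, and no group carried a mutation or a treatment. Each library is a pool of several mice, with more animals behind an epithelial library than behind a whole tissue library. The epithelial cells were those remaining after luminal sperm were flushed out, the tissue was digested and adherent cells were removed by plating. The paper names these adherent cells as fibroblasts and muscle cells. The epithelial cells had therefore spent time outside the animal. All deposited libraries were used, although the methods describe fewer replicates of whole caput and cauda than the 3 libraries analysed for each. The sources are not clear on whether replicate libraries are biological or technical, and p-values therefore measure only the spread between these libraries. The preparations also differ in table, depth and possibly sequencing run, which cannot be told apart from the cells themselves.

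A miRNA is cut from a hairpin precursor whose arms pair into a duplex. One arm is normally kept in Argonaute as the guide while the other, the passenger, is lost. The 5p arm is the usual guide of miR-21, a miRNA best known for rising in cancer, fibrosis and inflammation. It is abundant in many healthy epithelia as well. In bulk RNA a lower level may come from fewer cells that make the miRNA or from less of it per cell, and these cannot be told apart.

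The mature arms are shown because their seeds (bases 2 to 8 from the 5′ end, in capitals) set which messages each can pair with, and because near copies of the 5p arm could share its reads. The sequences are RefSeq entries on GRCm38.p6, and the last pair belongs to the related genes Mir21c and Mir21b.
miR-21a-5p: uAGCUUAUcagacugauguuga
miR-21a-3p: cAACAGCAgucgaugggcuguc
miR-21c: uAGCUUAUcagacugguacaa
miR-21b: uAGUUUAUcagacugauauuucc

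The 5p arm lies at chr11:86584120-86584141 and the 3p arm at chr11:86584082-86584103, both on the minus strand. Their hairpin gene Mir21a spans chr11:86584067-86584158, with 92 bases, the 5p arm at hairpin bases 18 to 39 and the 3p arm at bases 56 to 77. In the GENCODE annotation of the same build the hairpin falls inside the 3′ UTR of the last exon of Vmp1, which encodes a membrane protein of autophagy and is read from the same strand. The UTR, stop codon included, runs from 86583865 to 86585310 in transcript Vmp1-201.

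miR-21c (chr8:128278188-128278208, minus strand) was the only other mature miRNA in the RefSeq table with the seed of either arm. Counted from the 5′ end over the 21 bases compared, it differs from miR-21a-5p by A16G, G18A, U19C, U20A and G21A, with the base of miR-21a-5p written first. miR-21b (chr3:29636768-29636790, plus strand) differs by C4U, G18A, G21U and A22C over 22 bases, and the first of these changes its seed. Neither miR-21b nor miR-21c was listed in either table, so no count of theirs could be set beside that of miR-21.

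Library totals ran from 1243398 to 2135501 counts in whole tissue and from 89039 to 362867 in epithelial cells. The paper reports high enrichment of epithelial cells by androgen receptor staining, with no sperm marker detected. Here the epithelial label was checked against marker miRNAs. All 6 epithelial libraries had miR-143-3p, a miRNA of smooth muscle, as their most abundant miRNA. The 4 smooth muscle markers summed to 127995 to 186955 CPM (counts for every 1000000 in the library) in epithelial caput against 45414 to 58957 in whole caput. They summed to 205765 to 230989 in epithelial corpus against 83586 to 86494 in whole corpus, and in cauda the ranges overlapped, at 184999 to 319298 against 248629 to 270479. The 7 epithelial markers summed to 32003 to 48715 CPM in epithelial cauda against 9668 to 11411 in whole cauda and to 39517 to 46351 in epithelial corpus against 22351 to 25389 in whole corpus, but to 28230 to 28986 in epithelial caput against 23173 to 29448 in whole caput. The 2 endothelial markers summed to 24376 to 31664 CPM in epithelial caput against 12421 to 16309 in whole caput, and to 53724 to 54535 in epithelial cauda against 17805 to 19295 in whole cauda, but were lower in epithelial corpus, at 13885 to 14398 against 15286 to 15871. The preparation named epithelial thus had higher sums of epithelial markers in the corpus and cauda. It also had higher sums of smooth muscle markers in the caput and corpus and of endothelial markers in the caput and cauda. Of the 7 epithelial markers, only miR-205-5p (9904 to 26293 CPM against 1049 to 2194 in whole tissue) and miR-200b-3p (2825 to 8198 against 1237 to 2470) had separate ranges over all libraries. Leukocyte sums were lower in epithelial cells in every region, and red blood cell sums were higher in caput and cauda.

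The 5p arm of miR-21 was among the most abundant miRNAs of every library, and it was highest in the caput of both preparations. In whole tissue it ranked 7th or 8th and made up 3.46% to 4.65% of all counts. In epithelial cells it ranked 8th or 9th and made up 2.52% to 3.58%. The 3p arm, the passenger, ranked between 142nd and 230th over the 14 libraries.

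The raw counts of the 5p arm in whole tissue were 68107, 80149 and 87772 in caput, 45812 and 53899 in corpus, and 64140, 50458 and 54373 in cauda. Scaled with TMM factors, which make most miRNAs comparable between libraries, these became 43807, 55289 and 48174 CPM in caput, 34227 and 35354 in corpus, and 33011, 31064 and 32055 in cauda. Every caput library was above every other library, and the corpus libraries were both above the cauda libraries. The group levels were 49090 ± 5796 CPM in caput (SD, n = 3), 34790 ± 797 in corpus (n = 2) and 32043 ± 973 in cauda (n = 3).

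Between whole caput and cauda the 5p arm fell by 0.61 on the log2 scale (1.52-fold; SE 0.087, limma-voom adjusted p = 0.00011), with all 3 caput libraries above all 3 cauda libraries. From caput to corpus it fell by 0.49 (1.40-fold; SE 0.098, adjusted p = 0.0020). The step from corpus to cauda was -0.12 (SE 0.099, adjusted p = 0.31) and did not pass. The order of levels was therefore caput above the other 2 regions. Corpus and cauda lay close, with both corpus libraries above the cauda libraries but a difference that did not pass.

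None of these changes reached the 2-fold size that the study asked of a differentially expressed miRNA, and neither arm was called by that rule in any comparison between regions. The rule called 53.2% of the 355 miRNAs tested between whole caput and cauda, 29.9% of 334 between caput and corpus, and 27.3% of 341 between corpus and cauda. By the adjusted p alone, 79.2% of the miRNAs tested changed between caput and cauda and 41.4% fell, 59.3% changed between caput and corpus and 32.6% fell, and 54.3% changed between corpus and cauda. A fall that passes this threshold was thus a common result, and 249 of the 355 miRNAs had a larger absolute change than miR-21a-5p.

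**Figure D1:**
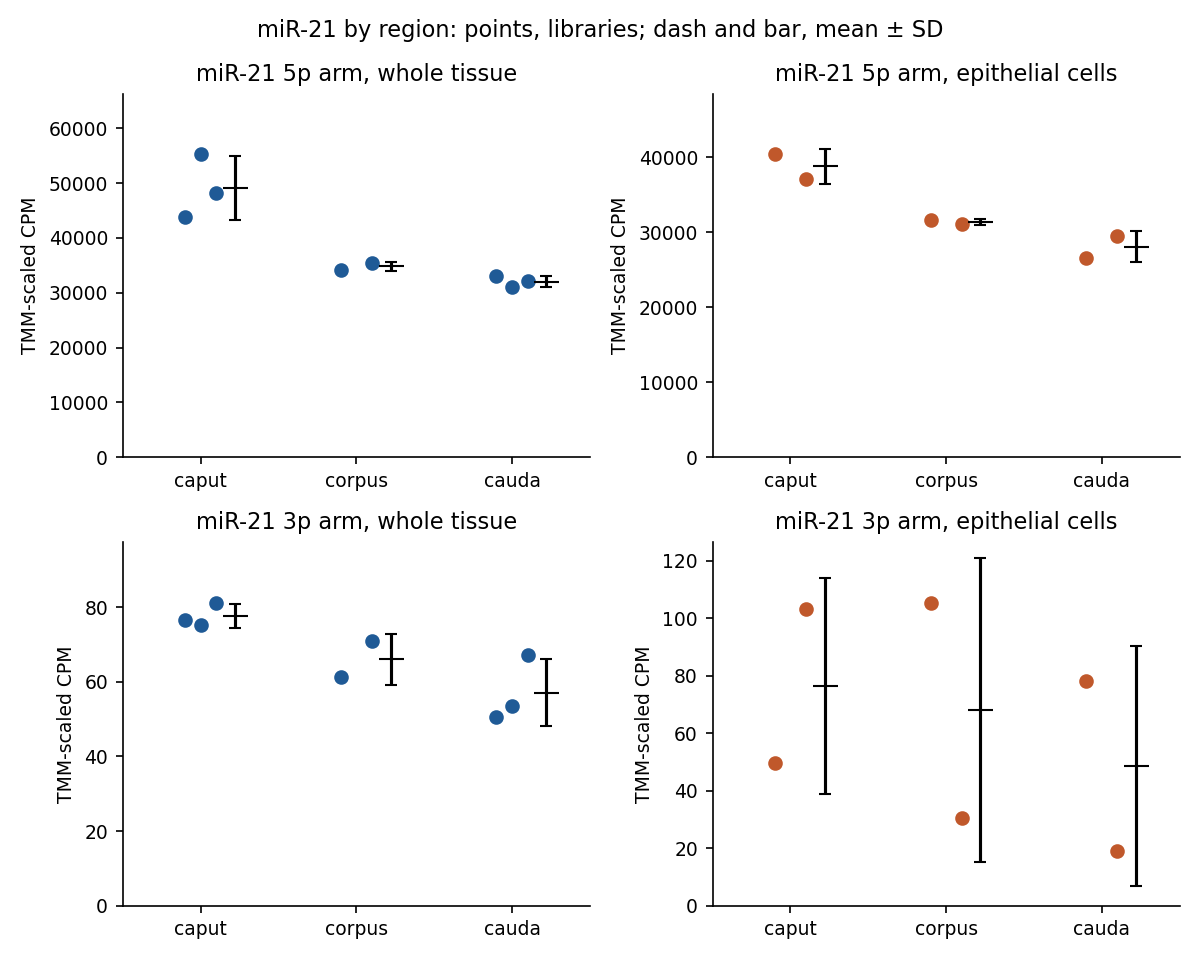
TMM-scaled CPM (vertical axes, from 0) of the 5p arm (top) and the 3p arm (bottom) in whole tissue and epithelial cells by region; points are libraries, dashes with bars are means ± SD. The 5p arm is highest in caput in both preparations, while the epithelial 3p points lie far apart within each region.

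The same order was seen in isolated epithelial cells, with 2 libraries per region. Raw 5p counts were 12981 and 11513 in caput, 3903 and 3046 in corpus, and 7136 and 6178 in cauda. The TMM-scaled levels were 40394 and 37093 CPM in caput, 31670 and 31107 in corpus, and 26571 and 29508 in cauda. No library of one region overlapped those of another, and the means were 38744 ± 2334, 31389 ± 398 and 28040 ± 2076 CPM (SD, n = 2 each).

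From epithelial caput to cauda the 5p arm fell by 0.47 on the log2 scale (1.38-fold; SE 0.150, limma-voom adjusted p = 0.040). The steps from caput to corpus (-0.30, SE 0.150, adjusted p = 0.19) and from corpus to cauda (-0.16, SE 0.150, adjusted p = 0.47) did not pass. The call between caput and cauda was lost without any 1 of the 6 libraries, with adjusted p from 0.057 to 0.23, so it depends on every library. The 2-fold rule called 25.9% of 216 miRNAs between caput and cauda, 12.2% of 205 between caput and corpus, and 10.9% of 192 between corpus and cauda. By the adjusted p alone 39.4% passed between caput and cauda and 18.5% fell, while 19% passed between caput and corpus and 13.5% between corpus and cauda.

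How the libraries were scaled decided how large the fall of the 5p arm was. As a plain share of library totals it was 4.22% ± 0.38 in whole caput (SD, n = 3), 3.78% ± 0.13 in corpus (n = 2) and 3.52% ± 0.080 in cauda (n = 3). The caput to cauda change was then -0.26 on the log2 scale (limma-voom adjusted p = 0.0097), and the caput to corpus change was -0.16 (adjusted p = 0.14). In epithelial cells the shares were 3.56% ± 0.024, 3.25% ± 0.25 and 2.98% ± 0.66 (n = 2 each), and the caput to cauda change of -0.28 did not pass (adjusted p = 0.27). With library totals the median of all miRNAs tested shifted by 0.30 in whole tissue and 0.18 in epithelial cells between caput and cauda. With TMM it shifted by -0.046 and -0.0014. The change of the 5p arm was below the median under both scalings. Scaling shifts all miRNAs nearly alike, so this likeness was set in advance and is no separate support for the fall.

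The levels of smooth muscle markers also differed between regions. In whole tissue the 4 markers summed to 45414 to 58957 CPM in caput, 83586 to 86494 in corpus and 248629 to 270479 in cauda, and all 4 were called as rising from caput to cauda, where 53.2% of all miRNAs were called. All 4 were also called as rising from corpus to cauda, beside 27.3% of all miRNAs called. From caput to corpus 0 of the 3 tested were called, beside 29.9%, although miR-143-3p rose by 0.42 there (adjusted p = 0.0051) and the sums did not overlap. The member not tested there, miR-143-5p, had a mean count of only 11.1 over the whole tissue libraries. It passed the count filter through cauda alone, so its calls as rising are no support. In epithelial cells 0 of the 3 tested were called in any comparison, beside 12.2% of all miRNAs from caput to corpus, 10.9% from corpus to cauda and 25.9% from caput to cauda. Their most abundant member, miR-143-3p, rose in whole tissue by 2.03 on the log2 scale (SE 0.087, limma-voom adjusted p = 5.8e-08). When the counts of these 4 miRNAs were taken out of the library totals, an alternative chosen after seeing the data, the 5p arm changed by 0.10 from whole caput to cauda (adjusted p = 0.23) and by 0.21 from corpus to cauda (adjusted p = 0.058), both with the opposite sign. The median of all miRNAs tested between caput and cauda was 0.67 on that scale. In epithelial cells the change on that scale was -0.099 (adjusted p = 0.54) beside a median of 0.37. Whether muscle cells take part in the regional order of miR-21 was not tested.

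**Figure D2:**
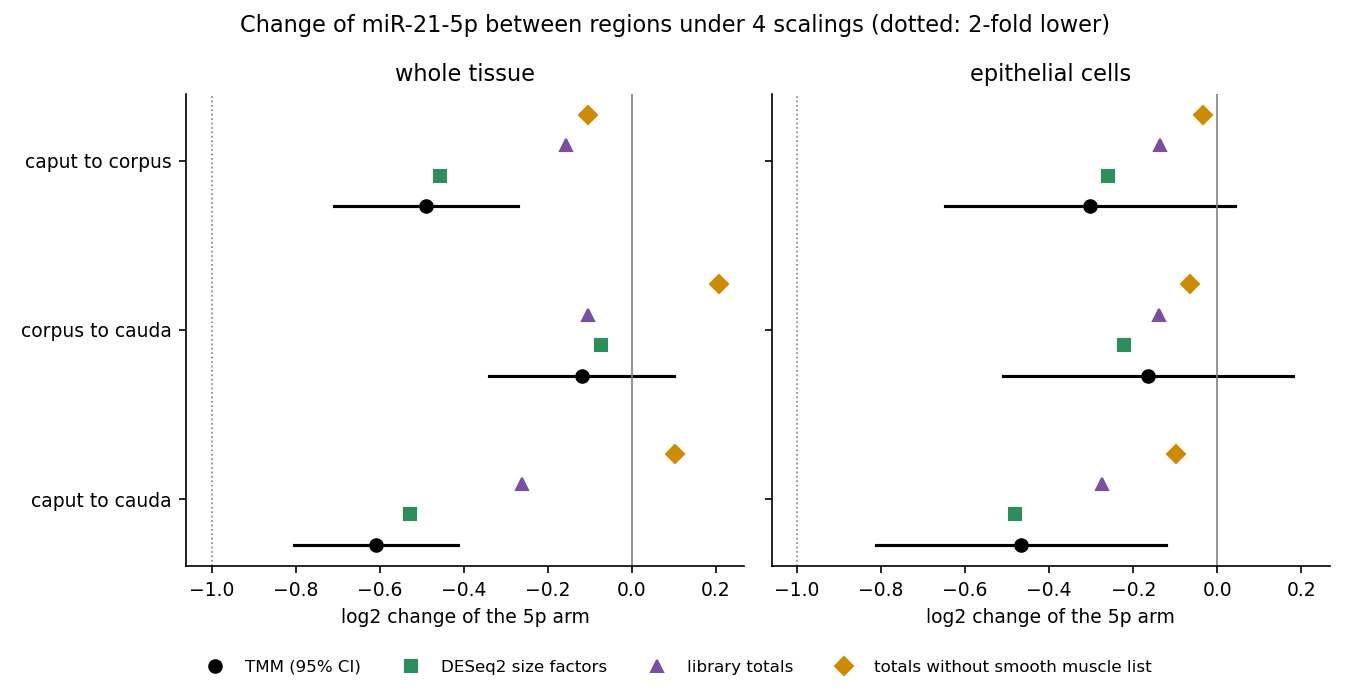
Log2 change of the 5p arm (horizontal axis) for each step between regions under TMM factors (circle, bar for the 95% confidence interval), DESeq2 size factors (square), library totals (triangle) and totals without the smooth muscle list (diamond); the dotted line marks a 2-fold fall. No estimate reaches 2-fold, and the whole tissue diamonds cross 0 in the comparisons with cauda.

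Other marker lists moved along the duct as well. The 5 leukocyte markers summed to 863 to 990 CPM in whole caput and 2129 to 2209 in whole cauda, where 3 of the 5 were called as rising beside 53.2% of all miRNAs called in either direction, and to 449 to 766 and 1504 to 1614 in epithelial caput and cauda, where 2 of the 2 tested were called as rising beside 25.9% of all miRNAs called. The 7 epithelial markers of whole tissue went the other way, from 23173 to 29448 CPM in caput to 9668 to 11411 in cauda, with 6 of 7 called as falling beside the same 53.2%. No list had a member at 0 in all libraries of a region. Among the leukocyte markers of whole tissue, miR-155-5p passed the count filter through cauda alone, so its call as rising is no support. miR-21-5p, which is made both by epithelia and by blood cells, was lower in cauda while the leukocyte list was higher there, and the part of either cell type in its level was not tested.

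The leading members of these lists showed the same spread. From whole caput to cauda miR-142a-5p, of leukocytes, changed by 0.85 (SE 0.113, limma-voom adjusted p = 6.4e-05), miR-200a-3p, which keeps cells epithelial, by -1.25 (SE 0.087, adjusted p = 6.5e-07) and miR-486a-5p, of red blood cells, by 3.89 (SE 0.201, adjusted p = 9.1e-08). miR-126a-5p, of endothelium, changed by 0.050 (adjusted p = 0.62), miR-199a-5p, of stroma, by 0.63 (adjusted p = 0.00052), and miR-34c-5p, of germ cells and ciliated cells, by 0.99 (adjusted p = 6.5e-05). The change of miR-21a-5p was smaller in size than all of these but that of miR-126a-5p.

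In the epithelial libraries the leading members were partly others. From caput to cauda miR-486-5p changed by 2.72 (limma-voom adjusted p = 0.0014), miR-142-5p by 1.04 (adjusted p = 0.022), miR-126-5p by 0.79 (adjusted p = 0.018) and miR-199a-3p by 1.08 (adjusted p = 0.0078). miR-205-5p, of basal epithelial cells, changed by 0.96 (adjusted p = 0.0022), miR-143-3p by 0.45 (adjusted p = 0.29) and miR-34c-5p by -0.49 (adjusted p = 0.32). These single members do not stand for their lists. The stromal list, led by miR-199a-3p, had a median of 0.30 with 1 of 4 called, and its miR-214-3p was at -1.02 (adjusted p = 0.057). The germ cell list had a median of 2.09, with 2 of 6 called as rising and 0 as falling, and the epithelial list a median of -0.19, with 0 of 7 called as rising and 1 as falling, beside 25.9% of all miRNAs called.

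**Figure D3:**
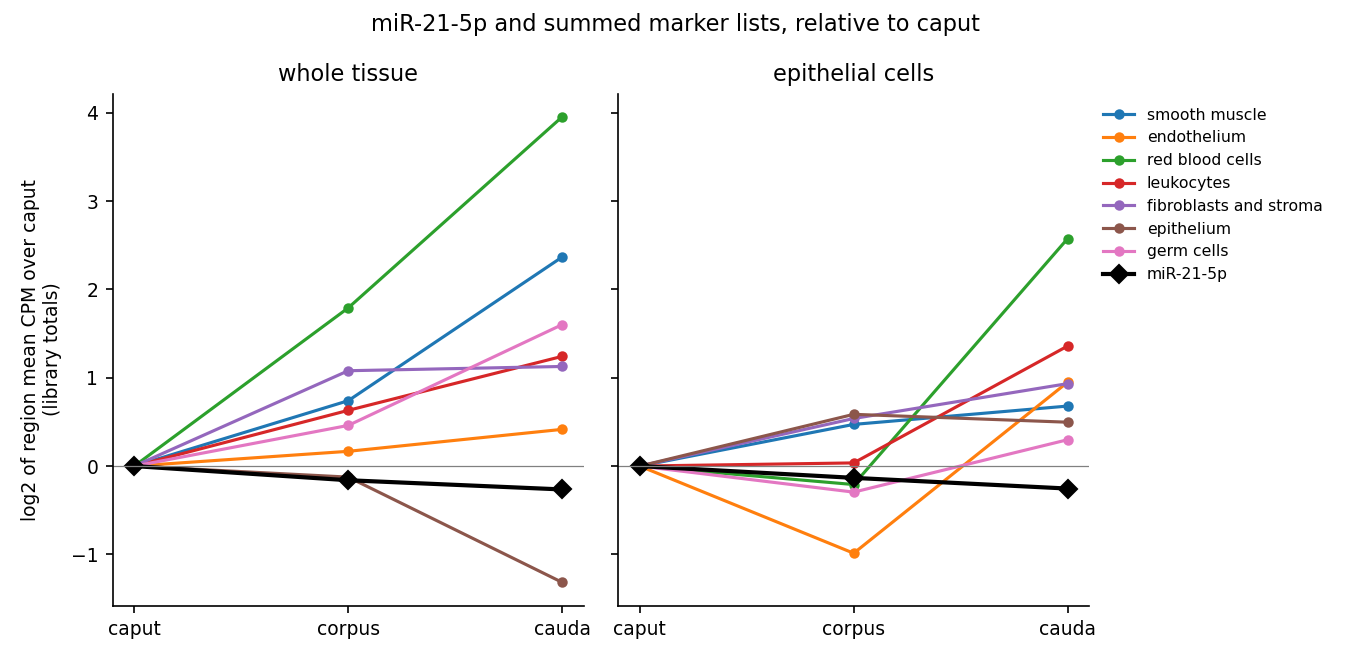
Region means of miR-21-5p (black diamonds) and of the summed marker lists, each as log2 over its caput mean, from CPM by library totals, in whole tissue (left) and epithelial cells (right). miR-21-5p stays close to 0, while the red blood cell list rises in cauda in both panels and the epithelial list falls in whole cauda.

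The 5p arm varied little compared with other miRNAs, most of which were scarcer and carried more counting error. No comparison at like abundance was made. Over the 8 whole tissue libraries the SD of its log2 CPM was 0.31, the 58th smallest of 271 miRNAs with a mean count above 10 in every region, whose median SD was 0.54. Over the 6 epithelial libraries it was 0.22, the 17th smallest of 142, with a median of 0.41.

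The miRNAs whose pattern was most like that of the 5p arm in whole tissue, by Pearson's r of log2 CPM over 8 libraries that share their TMM factors, were miR-872-3p (r = 0.996), let-7c-5p (0.96), miR-671-3p (0.96), and let-7a-1-3p and let-7c-2-3p (0.96 each). The last pair had the same values in every library and cannot be told apart by its counts. From caput to cauda their log2 changes were -0.82 for miR-872-3p, -0.78 for let-7c-5p, -1.86 for miR-671-3p and -1.16 for let-7a-1-3p and let-7c-2-3p, a direction that the choice by correlation sets in advance. In epithelial cells, over 6 libraries, the closest were miR-182-5p (r = 0.99), miR-191-5p (0.97), miR-672-5p (0.96), let-7c-5p (0.95) and miR-429-3p (0.95). let-7c-5p, of the let-7 family that restrains growth, was the single miRNA among the closest 5 in both preparations. These correlations describe few libraries in 3 regions and carry no test.

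The passenger arm was scarce in every library. Its counts were 119, 109 and 148 in whole caput, 82 and 108 in corpus, and 98, 87 and 114 in cauda, and 16 and 32, 13 and 3, and 21 and 4 in epithelial caput, corpus and cauda. The TMM-scaled whole tissue levels were 76.5, 75.2 and 81.2 CPM in caput, 61.3 and 70.8 in corpus, and 50.4, 53.6 and 67.2 in cauda. As with the 5p arm, all caput libraries were above all others, while corpus and cauda overlapped.

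From whole caput to cauda the 3p arm fell by 0.46 on the log2 scale (1.37-fold; SE 0.145, limma-voom adjusted p = 0.014). Scaling changed this value, to -0.11 with library totals (adjusted p = 0.50) and to 0.25, with the opposite sign, when the smooth muscle miRNAs were also left out of the totals (adjusted p = 0.13), and DESeq2 gave -0.37 (adjusted p = 0.19). The medians of all miRNAs tested were 0.30 and 0.67 on the first 2 of these scales. The 3p change was below both medians, which is no separate support, since scaling shifts all miRNAs nearly alike. The call was also lost without caput replicate 2 (-0.42, adjusted p = 0.062) or 3 (-0.36, adjusted p = 0.096) and without cauda replicate 1 (-0.37, adjusted p = 0.056) or 2 (-0.40, adjusted p = 0.053). The steps from caput to corpus (-0.23, adjusted p = 0.25) and from corpus to cauda (-0.23, adjusted p = 0.26) did not pass. In epithelial cells, at 3 to 32 counts, the levels were 49.8 and 103 CPM in caput, 105 and 30.6 in corpus, and 78.2 and 19.1 in cauda, and the caput to cauda change of -0.72 had a 95% confidence interval from -2.35 to 0.90 (adjusted p = 0.42). A regional change of the 3p arm was not detectable in these epithelial libraries.

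The ratio of the arms does not depend on how libraries are scaled, since both are read in the same library. In whole tissue the 5p count exceeded the 3p count by 572, 735 and 593 times in caput, 559 and 499 times in corpus, and 654, 580 and 477 times in cauda. As log2 of the ratio, with 0.5 added to each count, the mean was 9.17 ± 0.20 (SD, n = 8), a 576-fold excess. The regional means were 9.29 ± 0.20 in caput (n = 3), 9.04 ± 0.11 in corpus (n = 2) and 9.14 ± 0.23 in cauda (n = 3), and the ranges of caput and cauda overlapped.

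The caput to corpus difference in log2 ratio was -0.26 (exact permutation test, two-sided, p = 0.20), the corpus to cauda difference 0.10 (exact p = 0.60) and the caput to cauda difference -0.16 (exact p = 0.50). With these numbers of libraries the smallest p the test can give is 0.10, so it cannot pass 0.05, and all 6 regional comparisons had an adjusted p of 1. Over the 8 libraries the SD of the ratio of miR-21 was the 6th smallest of 96 hairpins with both arms above a mean count of 10, whose median SD was 0.51.

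In epithelial cells the 5p count was 811 and 360 times the 3p count in caput, 300 and 1015 times in corpus, and 340 and 1544 times in cauda. The mean log2 ratio was 9.14 ± 0.92 (SD, n = 6), a 563-fold excess. Regional differences were -0.074 from caput to corpus (exact permutation p = 1), 0.43 from corpus to cauda (exact p = 0.67) and 0.35 from caput to cauda (exact p = 1), where the smallest possible p is 0.33. The libraries of one region differed more than the regions did. Over these 6 libraries the SD of the ratio of miR-21 was the 27th smallest of 32 hairpins, whose median SD was 0.59.

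The share of the 3p arm in all miR-21 counts shows the precision behind these ratios. Summed over libraries it was 0.171% in whole tissue (exact 95% Clopper-Pearson interval 0.160% to 0.183%) and 0.198% in epithelial cells (0.159% to 0.244%). Such intervals cover counting error only. Single whole tissue libraries lay between 0.136% and 0.209%, and 2 of their 28 pairs had intervals that did not overlap.

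Single epithelial libraries lay between 0.0647% (0.0176% to 0.166%, cauda replicate 2) and 0.332% (0.177% to 0.567%, corpus replicate 1), with 3 of 15 pairs of intervals apart. Within a region the higher epithelial share was 2.25 times the lower in caput, 3.37 times in corpus and 4.53 times in cauda. Caput replicate 2, corpus replicate 1 and cauda replicate 1 were the higher ones, so the order did not follow the replicate numbers.

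**Figure D4:**
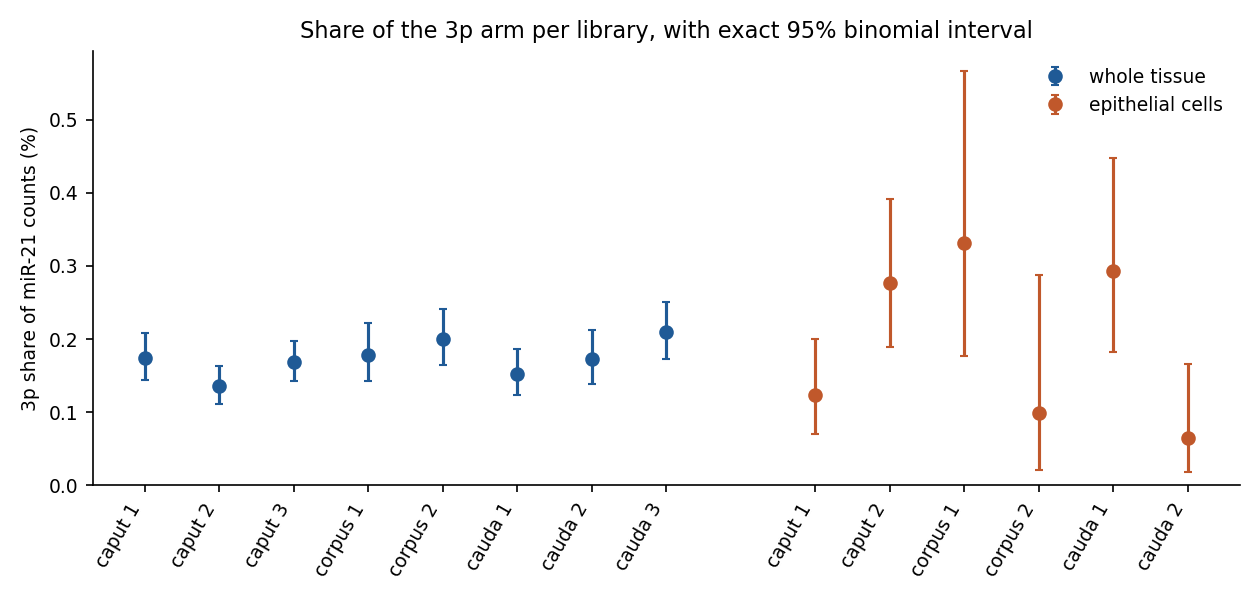
Share of the 3p arm in all miR-21 counts (percent, vertical axis) per library, with exact 95% binomial intervals, for 8 whole tissue libraries (blue) and 6 epithelial libraries (orange). Whole tissue points lie between 0.136% and 0.209%, and the epithelial intervals are wider.

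The 2 preparations gave miR-21 nearly the same mean arm ratio. The difference within region, epithelial cells minus whole tissue, was -0.017 on the log2 scale (exact permutation test within regions, two-sided, p = 0.97, with a smallest possible p of 0.0017). Other settings moved it between -0.21 and 0.067, and leaving out 1 library between -0.36 and 0.32. A p of this size does not show that the ratios are equal, and the epithelial values spread from 8.18 to 10.42.

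The same test over 32 hairpins called 78.1% of them at an adjusted p under 0.05, 17 lower and 8 higher in epithelial cells, and miR-21 was not among them. Its difference was the smallest of the 32 with this pseudocount and all libraries, an order that the 0.067 found for miR-21 without a pseudocount and its range over single libraries left out do not fix. Among its neighbours in strength, miR-99b went from 9.71 in whole tissue to 8.85 (difference -0.88, exact permutation adjusted p = 0.024) and miR-10a from 9.98 to 11.04 (difference 1.00, exact permutation adjusted p = 0.0025). Names were matched between tables by adding the letter a where needed, and reads of an arm that several miRNAs share may have been divided differently in each table.

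miR-21 was one of the hairpins with the strongest preference for the 5p arm. In whole tissue it ranked 5th of 96 hairpins, between miR-99b (9.71) and let-7i (8.05), and 54 of the 96 favoured the 5p arm. In epithelial cells it ranked 2nd of 32, between miR-10a (11.04) and miR-99b (8.85). The median absolute log2 ratio was 3.64 over the 96 hairpins and 4.05 over the 32.

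**Figure D5:**
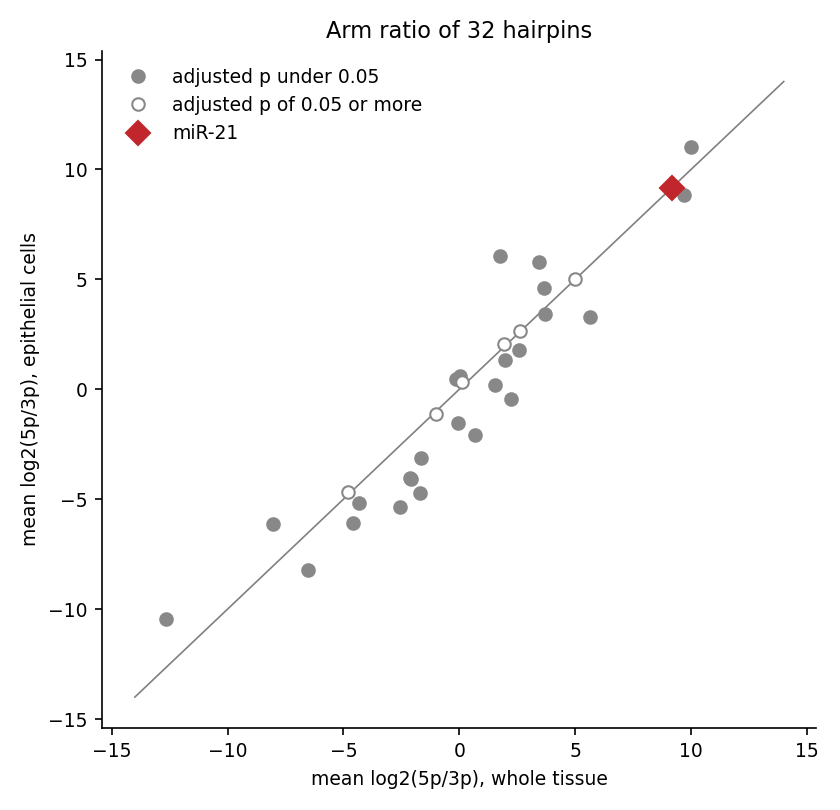
Mean log2 ratio of the 5p to the 3p count in whole tissue (horizontal) and epithelial cells (vertical) for 32 hairpins; the line marks equal ratios, filled points passed the exact permutation test between preparations and the diamond is miR-21. miR-21 lies on the line at 9.17 and 9.14, near the upper right end.

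Levels of the 5p arm were compared between preparations in 1 fit of all 14 libraries over the 607 names that the tables share. The TMM-scaled levels in that fit were 42778, 53092 and 47711 CPM in whole caput against 36918 and 38731 in epithelial caput. They were 35105 and 36258 against 29879 and 31275 in corpus, and 32974, 32947 and 34090 against 28171 and 28340 in cauda. Every epithelial library was below every whole tissue library of its region.

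The epithelial level of the 5p arm was lower by 0.33 on the log2 scale in caput (1.26-fold; SE 0.093, limma-voom adjusted p = 0.0064), by 0.22 in corpus (adjusted p = 0.11) and by 0.24 in cauda (adjusted p = 0.047). None of these reached 2-fold, a rule that called 36% of 211 miRNAs in caput, 26.5% in corpus and 40.3% in cauda. By the adjusted p alone 60.2% passed in caput, 44.5% in corpus and 61.1% in cauda. With library totals the caput difference was -0.24 (adjusted p = 0.092) and the cauda difference -0.26 (adjusted p = 0.080), and neither passed. With at least 10 counts in every library the caput difference was -0.22 (adjusted p = 0.097) and the corpus difference -0.32 (adjusted p = 0.037), and with TMM factors from all miRNAs the corpus difference was -0.34 (adjusted p = 0.041). The cauda call was lost with the replicate block (-0.19, adjusted p = 0.19) and with edgeR (-0.24, adjusted p = 0.055), and the cauda difference was -0.40 with DESeq2 (adjusted p = 0.00098) and -0.63 both with TMM factors from all miRNAs and with the filter of 10 counts (adjusted p = 0.00022 each). The caput call was also lost without epithelial caput replicate 1 (adjusted p = 0.067) or 2 (0.060), and the cauda call without whole cauda replicate 2 (0.096), epithelial caput replicate 1 (0.058) or epithelial corpus replicate 2 (0.055). The corpus difference passed without whole caput replicate 2 or 3, whole cauda replicate 1, epithelial caput replicate 2 or epithelial cauda replicate 1, each left out in turn, with adjusted p from 0.019 to 0.046. For the 3p arm the differences were -0.12, -0.10 and -0.45, with adjusted p of 0.81, 0.89 and 0.46.

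Whether the fall along the duct differed between preparations was tested directly. For the 5p arm the epithelial change minus the whole tissue change was 0.096 from caput to cauda (SE 0.135, 95% confidence interval -0.19 to 0.39, limma-voom adjusted p = 0.63), 0.11 from caput to corpus (adjusted p = 0.77) and -0.014 from corpus to cauda (adjusted p = 0.96). The caput to cauda value of the 5p arm did not keep its sign. It ran from -0.41 to 0.10 under other settings and from -0.39 to 0.30 with 1 library left out. For the 3p arm the difference was -0.33 from caput to cauda (95% confidence interval -1.76 to 1.10, limma-voom adjusted p = 0.74). A difference in the fall was not detectable, whereas the 2-fold rule called 15.6% of 211 miRNAs in the caput to cauda comparison, 1.9% in caput to corpus and 8.53% in corpus to cauda.

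Other miRNAs that are studied in inflammation and fibrosis moved in both directions along the duct. Of the 12 on the list, which was drawn up with earlier results of these data known, 4 rose and 2 fell by the 2-fold rule between whole caput and cauda and 6 were not called, a share close to the 53.2% called among all miRNAs tested, with a median log2 change of 0.18 beside -0.046 over all 355 miRNAs tested. Those that rose were miR-155-5p (2.35) and miR-223-3p (1.49), both of immune cells, miR-132-3p (1.89), which is induced by signalling, and miR-199a-3p (1.01), a stromal miRNA. The mean count of miR-155-5p over the whole tissue libraries was only 8.6, with 0 in 1 library. It passed the count filter through cauda alone, so its rise is no support for a pattern. Those that fell were miR-146b-5p (-2.91, a 7.51-fold fall), a brake on innate immune signalling, and miR-29c-3p (-1.21), which restrains collagen messages.

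Their limma-voom adjusted p-values were 0.025 for miR-155-5p, 0.00055 for miR-223-3p, 0.0021 for miR-132-3p, 3.2e-06 for miR-199a-3p, 1.8e-06 for miR-146b-5p and 1.1e-06 for miR-29c-3p. From whole caput to corpus miR-146b-5p fell by 2.72 and miR-214-3p, made with miR-199a, rose by 1.02, while the other 9 of 11 tested were not called, where 29.9% of all miRNAs tested were called. From corpus to cauda miR-223-3p rose by 1.10 and 11 of 12 were not called, beside 27.3% called overall. Members that moved less than miR-21a-5p from caput to cauda included miR-146a-5p (-0.21, adjusted p = 0.43). miR-21a-5p thus fell with miR-146b-5p and miR-29c-3p and went against miR-223-3p, miR-132-3p and miR-199a-3p. miR-155-5p is left out of this contrast, because it was tested only through its cauda counts.

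In epithelial cells 10 members of the list could be tested. From caput to cauda miR-199a-3p rose by 1.08 (limma-voom adjusted p = 0.0078), miR-146b-5p fell by 3.03 (adjusted p = 0.00071) and 8 were not called, beside 25.9% called among all miRNAs tested, with a median of -0.40 beside -0.0014 over all miRNAs tested. From caput to corpus miR-146b-5p fell by 2.71 (adjusted p = 0.0030) and 9 were not called, beside 12.2% called overall. None of 10 was called from corpus to cauda, where 10.9% of 192 miRNAs were called. miR-146b-5p was the member with the largest fall in both preparations, at 7.51-fold in whole tissue and 8.16-fold in epithelial cells, beside 1.52-fold and 1.38-fold for miR-21-5p.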

How the data were processed

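Small RNA of 8 whole tissue and 6 epithelial libraries was analysed. Per the labels and methods, the authors trimmed and screened the reads, aligned them to mm10 and to mature miRNAs of miRBase, and deposited, for both preparations, unnormalized expected counts for each mature miRNA. The submitters' processing notes name CASAVA 1.8.2, Bowtie 1.1.1 and limma, and how reads matching several miRNAs were divided is not given in the sources used here. The epithelial table holds 0.001 added to every value, which was removed. Expected counts were rounded to whole numbers.

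Groups came from the sample labels. Levels were compared in R 4.3.3 with the voom method of limma 3.58.1 (limma-voom) and TMM factors of edgeR 4.0.16, in 1 fit per preparation and 1 joint fit, with Benjamini-Hochberg adjustment over the miRNAs with a mean count above 10 in either region compared, or in at least 1 region of each preparation for the joint fit. A miRNA was called with an FDR below 0.05 and at least 2-fold. TMM factors were computed on the miRNAs above the count filter. This was settled after the results of both ways had been seen, and factors from all miRNAs were kept as an alternative. Arm ratios were tested by exact permutation. DESeq2 1.42.0 was an alternative tool. Alternatives covered tools, scaling, filters, a replicate block, pseudocounts and leaving out each library. The scripts were tested on simulated data.

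The members and lists were chosen with earlier results of these data known. Named besides miR-21 were same-seed miRNAs, the 5 miRNAs most correlated with the 5p arm per preparation, the most abundant member of each marker list, called members of the inflammation and fibrosis list, and the hairpins ranking next to miR-21 in arm ratio.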

Additional observations from a re-analysis of the deposited data

How the results depend on the processing

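Of the values recomputed under other settings, 277 kept their direction and their side of the threshold (counts of calls within 1.5 times), 23 changed sign, 12 lost and 2 gained an adjusted p under 0.05, and 14 counts of calls moved further. With 1 library left out at a time, 44 values changed sign. No alternative brought either arm to the 2-fold rule. The whole tissue fall of the 5p arm from caput to cauda kept an adjusted p under 0.05 without each library in turn (-0.65 to -0.45) and in every alternative but the totals without the smooth muscle miRNAs. Causes were not tested beyond what each setting changes by construction.

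With library totals the 5p change was -0.16 from whole caput to corpus and -0.28 from epithelial caput to cauda, and the 3p change was 0.10 from whole caput to corpus, -0.11 from whole caput to cauda and 0.062 from epithelial caput to corpus. The preparation difference of the 5p arm was then -0.24 in caput and -0.26 in cauda, and the difference between preparations in the change was -0.018 for the 5p arm from caput to cauda and -0.077 for the 3p arm from caput to corpus. With totals that leave out the smooth muscle miRNAs, added after seeing the data, the whole tissue 5p changes were -0.10, 0.21 and 0.10 and the 3p changes 0.15, 0.10 and 0.25 (caput to corpus, corpus to cauda, caput to cauda), and in epithelial cells the 5p caput to cauda change was -0.099 and the 3p caput to corpus change 0.18.

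With TMM factors from all miRNAs, also added after seeing the data, the 5p difference between preparations in corpus was -0.34 (adjusted p = 0.041), the difference in the caput to cauda change was -0.26 (adjusted p = 0.28), and that of the 3p arm from caput to corpus was -0.056. With DESeq2 size factors the 5p difference in the caput to cauda change was -0.027. DESeq2 gave -0.020 for it, 0.065 for the 3p difference between preparations in corpus and -0.37 for the whole tissue 3p fall from caput to cauda (adjusted p = 0.19). edgeR gave 0.030 for the 3p difference in corpus and -0.24 for the 5p difference in cauda (adjusted p = 0.055). With only the 2 regions compared, the epithelial 5p fall from caput to cauda was -0.47 (adjusted p = 0.068). With at least 10 counts in every library, the 5p difference between preparations was -0.22 in caput (adjusted p = 0.097) and -0.32 in corpus (adjusted p = 0.037), and the difference in change was -0.11 from caput to corpus and -0.41 from caput to cauda (adjusted p = 0.067). That filter also moved the calls over all miRNAs from 100 to 64 and from 189 to 115 in whole tissue (caput to corpus, caput to cauda) and from 56 to 28 in epithelial cells. It moved them from 76 to 42 in caput and 85 to 45 in cauda between preparations, and from 18 to 9 and 33 to 21 for the difference in change (corpus to cauda, caput to cauda). Testing all miRNAs with a count moved the epithelial calls from 25 to 53 (caput to corpus) and 21 to 37 (corpus to cauda). For the difference in the caput to corpus change, 4 calls became 8 with DESeq2 or its size factors and 2 with library totals. Without 1 library the epithelial calls ran from 10 to 30, 4 to 27 and 26 to 60.

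Whether replicate numbers pair the libraries was not settled. The deviations of same-numbered whole tissue libraries correlated between -0.21 and 0.12. Same-numbered epithelial libraries correlated at 0.32 for caput and corpus, -0.25 for caput and cauda and -0.32 for corpus and cauda. With 2 libraries per region each of these values also appears with the opposite sign, by construction. With the replicate block the epithelial 3p change from caput to corpus was 0.062, the 3p differences between preparations 0.081 in caput and 0.21 in corpus, and the 5p difference in cauda -0.19 (adjusted p = 0.19), and it changed no other call of miR-21. In epithelial cells cauda numbers correlated negatively with the others. Crossing them in the block gave 40 calls from caput to corpus in place of 25 and 32 from corpus to cauda in place of 21. This crossing was chosen after seeing these correlations, so the added calls are no independent result.

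Leaving out 1 library at a time gave, for the 3p arm, -0.58 to -0.36 from whole caput to cauda, and in epithelial cells -1.03 to 0.62 (caput to corpus), -1.36 to 0.27 (corpus to cauda) and -1.69 to 0.13 (caput to cauda). The epithelial 5p fall from caput to cauda ran from -0.55 to -0.33. The difference in change between preparations ran from -0.056 to 0.26, -0.39 to 0.047 and -0.39 to 0.30 for the 5p arm and from -0.70 to 0.72, -1.59 to 0.61 and -1.70 to 0.66 for the 3p arm (caput to corpus, corpus to cauda, caput to cauda). The preparation difference ran from -0.61 to -0.26, -0.37 to -0.22 and -0.66 to -0.22 for the 5p arm and from -0.66 to 0.52, -1.10 to 0.60 and -1.79 to 0.43 for the 3p arm (caput, corpus, cauda).

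For the log2 arm ratio, no pseudocount gave 0.031 for epithelial caput to corpus and 0.067 for the difference between preparations. Over all other settings the epithelial differences ran from -0.23 to 0.031 (caput to corpus) and from 0.062 to 0.42 (caput to cauda). The difference between preparations ran from -0.21 to 0.067. Leaving out 1 library gave, in whole tissue, -0.34 to -0.14 for caput to corpus, -0.0053 to 0.22 for corpus to cauda and -0.26 to -0.033 for caput to cauda. It gave -0.87 to 0.72, -0.60 to 1.45 and -0.67 to 1.38 for the epithelial caput to corpus, corpus to cauda and caput to cauda differences, and -0.36 to 0.32 between preparations. Adding counts of miR-21b and miR-21c was not run, since neither table lists them. The epithelial 3p arm had 3 to 32 counts a library, and the part of depth in its spread was not tested.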
